A study of Homo sapiens with 16 samples.

Results

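The 36 genes described here encode aminoacyl-tRNA synthetases, the enzymes that load tRNAs with their amino acids. They were taken by gene symbol from the 24293 loci of an RNA sequencing table, and 20 encode cytosolic enzymes and 16 mitochondrial ones, whose symbols end in 2. Where a symbol had several rows the one with the highest mean was used, which concerned VARS (7 rows, 6 of them at 0 in every library) and VARS2 (6 rows, 5 at 0). All 36 had a mean of at least 1 FPKM over the 16 libraries and were tested, among 11647 loci that reached this level. FPKM counts sequenced fragments relative to transcript length and to all mapped fragments of the library, so levels can be set side by side between genes.

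Polyadenylated RNA was sequenced from HCC4006, a lung adenocarcinoma line with an activating EGFR mutation. Cells were grown for 24 hours and then kept for 24 hours with gefitinib and AZ1366 together, with gefitinib alone, with AZ1366 alone, or with the DMSO vehicle, each compound at 100 nM. Gefitinib inhibits the EGFR kinase, and AZ1366 inhibits the tankyrases, poly-ADP-ribosylating enzymes that act in Wnt signalling and at telomeres. Each of the 4 groups held 4 libraries of the same line with no genetic change. The labels do not say whether these came from separate cultures, so the p-values measure the spread between libraries, which may be technical.

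Each synthetase recognises its own amino acid and the matching tRNAs, and joins them in a reaction that consumes ATP. Cytosol and mitochondria mostly use separate enzymes, all encoded in the nucleus, but GARS and KARS serve both compartments from a single gene each, and phenylalanine in the cytosol is handled by an enzyme of FARSA and FARSB subunits. Part of the cytosolic enzymes sit in a complex held together by the scaffold proteins AIMP1, AIMP2 and EEF1E1. In amino acid shortage or stress of the endoplasmic reticulum, the transcription factor ATF4 raises many cytosolic synthetase genes through composite C/EBP-ATF elements near their starts.

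Epithelial transcripts were abundant in all libraries. EPCAM ranged from 211 to 305 FPKM and KRT18 from 451 to 1142 FPKM over the 16 libraries, whereas the leukocyte gene PTPRC stayed at or below 0.139 FPKM and the endothelial gene PECAM1 at or below 0.122 FPKM. The fibroblast gene COL1A1 was not absent, with a median of 1.82 FPKM and a highest value of 2.11 FPKM. COL1A2, also a fibroblast gene, stayed at or below 0.682 FPKM. These levels show an epithelial state and do not identify the line itself. Summed FPKM ran from 433357 to 478179 per library. The number of reads behind them is unknown, so no counting interval can be given. Replicate 1 of the AZ1366 group stood apart in the synthetases: its median over the 20 cytosolic genes was 6.02 in log2(FPKM + 1), against 5.83 to 5.86 in the other 3 AZ1366 libraries and 6.04 to 6.196 in the vehicle libraries. Many of the counts that involve AZ1366, and many of the changes described at length, are therefore also given without it. Leaving it out moved all loci too: against vehicle 18.7% then rose and 49.1% fell with AZ1366, with a median of -0.15.

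The C/EBP-ATF element was looked for in the RefSeq promoter windows of GRCh38.p14, which run from 250 bases before to 50 bases after each annotated start. Windows were found for 30 of the 36 genes (39 windows in all), namely 16 cytosolic and 14 mitochondrial. The letters searched were TGATGNAA on both strands. They occurred for 7 of the 16 cytosolic genes (43.8%) and for 1 of the 14 mitochondrial genes (7.14%), against 4.46% of all 27305 genes with such windows. In the 100 bases before the start and the 50 after it, the shares were 37.5% of cytosolic genes, 0 of 14 mitochondrial genes and 2.28% of all genes. The matches are shown here because these genes return below as a group, with the 8 matching bases in capitals, in the direction of transcription. For AARS and YARS2 a stretch around the match is shown, and the others end at the start or where the match ends.
AARS (chr16:70289650-70289729, minus strand): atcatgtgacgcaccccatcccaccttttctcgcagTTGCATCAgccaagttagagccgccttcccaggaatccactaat
CARS (chr11:3057418-3057461, minus strand): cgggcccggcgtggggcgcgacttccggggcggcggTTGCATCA
GARS (chr7:30594809-30594877, plus strand): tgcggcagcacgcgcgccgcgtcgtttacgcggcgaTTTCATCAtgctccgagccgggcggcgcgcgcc
IARS (chr9:92293698-92293746, minus strand): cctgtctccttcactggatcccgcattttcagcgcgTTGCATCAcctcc
MARS (chr12:57488028-57488071, plus strand): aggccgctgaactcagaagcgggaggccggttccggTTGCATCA
NARS (chr18:57621815-57621858, minus strand): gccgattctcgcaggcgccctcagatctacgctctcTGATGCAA
TARS (chr5:33440931-33440974, plus strand): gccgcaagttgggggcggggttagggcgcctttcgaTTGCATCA
YARS2 (chr12:32756051-32756130, minus strand): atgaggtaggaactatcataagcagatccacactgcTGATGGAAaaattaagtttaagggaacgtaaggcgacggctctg
A match is a run of letters and not evidence of binding. The only mitochondrial holder, YARS2, charges tRNA with tyrosine in the organelle, and its match lies far from the start. In CARS and MARS the match spans the start, and in NARS and TARS it lies just inside the transcribed part. For comparison, the letters GCGCANGCG, bound by the factor NRF1, occurred for 3 of 16 cytosolic and 3 of 14 mitochondrial genes, against 9.02% of all genes.

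In vehicle libraries the cytosolic synthetases were the more abundant class. Their means ran from 23.9 FPKM for VARS to 181 FPKM for TARS with a median of 67.0 FPKM, and those of the mitochondrial class from 2.51 FPKM for PARS2 to 58.4 FPKM for IARS2 with a median of 7.99 FPKM. The libraries of the vehicle group varied little, with a median coefficient of variation of 5.20% over the cytosolic and 5.67% over the mitochondrial genes. Together the cytosolic genes took 0.292 ± 0.00462% of all FPKM with the combination, 0.331 ± 0.0118% with gefitinib, 0.313 ± 0.00788% with AZ1366 and 0.363 ± 0.0140% with vehicle (SD, n = 4 each). For the mitochondrial genes these shares were 0.0367 ± 0.00111% with the combination, 0.0425 ± 0.00173% with gefitinib, 0.0404 ± 0.00219% with AZ1366 and 0.0492 ± 0.00232% with vehicle. The summed level of the cytosolic class over that of the mitochondrial class was 7.97 ± 0.164 with the combination, 7.79 ± 0.0989 with gefitinib, 7.75 ± 0.252 with AZ1366 and 7.37 ± 0.0821 with vehicle, and every combination and gefitinib library lay above every vehicle library in this ratio, while AZ1366 overlapped with vehicle through its replicate 1 alone. FPKM are shares of a library, so fewer cells with a transcript, fewer copies per cell and a gain of other transcripts cannot be told apart in these bulk samples.

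With gefitinib most synthetases were lower, but a few were higher. Of the 20 cytosolic genes 3 rose (WARS, QARS and CARS) and 10 fell, with a median log2 change of -0.15, and of the 16 mitochondrial genes 1 rose (HARS2) and 9 fell, with a median of -0.18. Over all loci tested 27.7% rose and 36.9% fell, and the median was -0.06. The changes come from limma on log2(FPKM + 1), fitted over all loci with p-values adjusted by the Benjamini-Hochberg method and a threshold of 0.05, and fold changes on this scale understate those of low genes. Without vehicle replicate 1 the count of falls in both classes together was 16 in place of 19. The share of all loci in that fit is not given here, so this drop cannot be read as one of the synthetases alone.

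With AZ1366 alone most synthetases were lower. Of the 20 cytosolic genes 1 rose (RARS) and 13 fell (median -0.24), and of the 16 mitochondrial genes 0 rose and 11 fell (median -0.23). Among all loci 18.6% rose and 39.8% fell, with a median of -0.10. Without AZ1366 replicate 1, 14 cytosolic and 13 mitochondrial genes fell and the medians were -0.28 and -0.24, beside falls of 49.1% of all loci. The calls of both classes depended on the scaling. Under quantile normalization 6 were lost and 3 gained, and after the length and GC correction 6 were lost and 3 gained. Median-ratio scaling lost 5 and gained 5, and SARS changed sign. The single rise was not stable either, and RARS, the arginyl enzyme, had an overlapping range. The count of rises was between 0 and 3 when a library was left out. It was 0 without AZ1366 replicate 2 or 3, 2 without gefitinib replicate 1, and 3 without AZ1366 replicate 1 or vehicle replicate 3. It was 6 under median-ratio scaling, where a larger share of all loci rose too, as given below. The count was 3 under quantile normalization, with no filter and after the length and GC correction.

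The combination gave the widest spread of values. Of the cytosolic genes 5 rose (QARS, WARS, CARS, RARS and DARS) and 13 fell, with a median of -0.39, and of the mitochondrial genes 3 rose (HARS2, RARS2 and PARS2) and 10 fell, with a median of -0.35. All loci gave 29.9% rises and 49.4% falls with a median of -0.15. Without vehicle replicate 1, 3 cytosolic genes rose in place of 5, RARS and DARS no longer being called. For that fit too the share of all loci is not given. The medians moved with the scaling. Scaling each library by median ratios set the median of all loci to 0.00 in all 3 comparisons with vehicle, and the cytosolic medians then were -0.22 for the combination, -0.09 for gefitinib and -0.12 for AZ1366, and the mitochondrial medians were -0.18 for the combination, -0.12 for gefitinib and -0.11 for AZ1366. Both class medians thus stayed below that of all loci. The split of all loci under this scaling was 40.4% higher and 40.3% lower for the combination, and 30.4% higher and 30.3% lower for AZ1366.

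**Figure D1:**
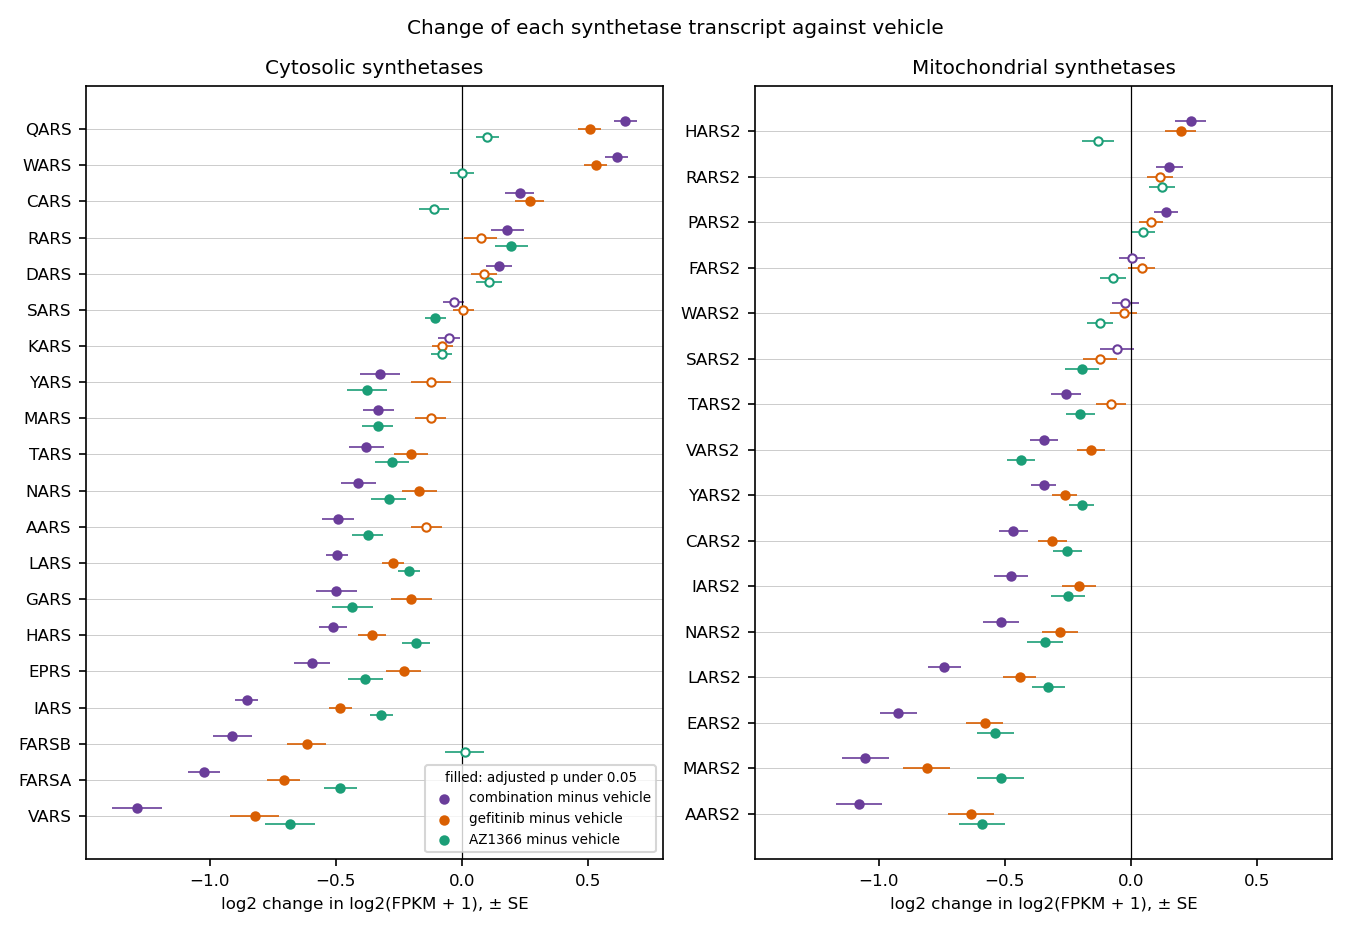
Log2 change in log2(FPKM + 1) with its standard error for each of the 20 cytosolic (left) and 16 mitochondrial (right) synthetase genes, for the combination, gefitinib and AZ1366, each minus vehicle (4 libraries per group). Filled points have an adjusted p under 0.05. VARS at -1.29 and AARS2 at -1.08 mark the low end and QARS at 0.65 the high end, all 3 with the combination.

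WARS, which charges tRNA with tryptophan and is known to be raised by interferons, rose most among the cytosolic genes with gefitinib (hg19 chromosome 14, 100800125 to 100842680). WARS had 143, 147, 139.6 and 147 FPKM in combination libraries, 137, 136, 141 and 131 FPKM in gefitinib libraries, 99.3, 89.8, 91.2 and 95.7 FPKM in AZ1366 libraries and 96.5, 89.7, 92.6 and 97.0 FPKM in vehicle libraries. All gefitinib and combination libraries lay above all AZ1366 and vehicle libraries. The log2 change was 0.61 ± 0.047 with the combination, 0.53 ± 0.047 with gefitinib and 0.00 ± 0.047 with AZ1366 (SE). Adjusted p was 1.58e-09 for the combination, 2.96e-08 for gefitinib and 0.990 for AZ1366, whose mean of 94.0 ± 4.35 FPKM lay beside 93.9 ± 3.46 FPKM in vehicle. Under median-ratio scaling the AZ1366 change of WARS was called at 0.12, and after the length and GC correction at 0.14.

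QARS, the glutaminyl enzyme of the large complex, had a like pattern (hg19 chromosome 3, 49133365 to 49142171). QARS had 47.0, 49.2, 49.7 and 48.5 FPKM in combination libraries, 42.3, 45.5, 44.2 and 44.0 FPKM in gefitinib libraries, 33.6, 33.0, 33.2 and 32.0 FPKM in AZ1366 libraries and 33.0, 29.8, 29.5 and 30.5 FPKM in vehicle libraries. The gefitinib groups did not overlap with the others, and the combination lay above gefitinib alone in all 4 libraries. QARS was the only synthetase that rose in the combination against gefitinib (0.14 ± 0.045, adjusted p = 0.0162), a call that was lost without gefitinib replicate 1. The change against vehicle was 0.65 ± 0.045 with the combination and 0.51 ± 0.045 with gefitinib (adjusted p = 3.76e-08). With AZ1366 alone it was 0.10 ± 0.045 and missed the threshold (adjusted p = 0.0667), although it passed without vehicle replicate 1, with no filter on low loci, and under quantile, median-ratio and length and GC corrected fits.

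CARS, the cysteinyl enzyme, was the third cytosolic gene that rose with gefitinib. CARS had 36.1, 37.4, 33.7 and 34.8 FPKM in combination libraries, 37.0, 38.2, 36.2 and 34.8 FPKM in gefitinib libraries, 31.3, 25.9, 27.3 and 27.1 FPKM in AZ1366 libraries and 31.0, 28.6, 29.9 and 31.1 FPKM in vehicle libraries. Gefitinib-treated libraries lay above all vehicle libraries, while AZ1366 overlapped with vehicle. The changes were 0.23 ± 0.058 with the combination, 0.27 ± 0.058 with gefitinib and -0.11 ± 0.058 with AZ1366, and the last was not called at adjusted p = 0.108 but was called at -0.17 without AZ1366 replicate 1. RARS had the highest or second highest level of all synthetases in each group. RARS had 172, 169, 188 and 184 FPKM in combination libraries, 168, 160.2, 170.2 and 165 FPKM in gefitinib libraries, 159.6, 195, 189 and 180.2 FPKM in AZ1366 libraries and 142, 160.2, 171 and 157 FPKM in vehicle libraries. Its groups overlapped throughout, and the change of 0.20 ± 0.065 with AZ1366 (adjusted p = 0.0165) and of 0.18 ± 0.065 with the combination (adjusted p = 0.0183) were both lost without vehicle replicate 1. The AZ1366 call was also lost without AZ1366 replicate 2 or 3, and the combination call without combination replicate 3 or 4. Over all 25 alternative fits, 6 lost the AZ1366 call of RARS and 4 its combination call. Its combination change was as low as 0.048 among them, and the largest adjusted p was 0.535.

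With the combination the largest falls of the cytosolic class were those of VARS, FARSA, FARSB and IARS. VARS, the valyl enzyme, lies in the major histocompatibility region (hg19 chromosome 6, 31745297 to 31763712). VARS had 9.34, 10.1, 8.24 and 8.93 FPKM in combination libraries, 12.9, 13.96, 11.9 and 13.3 FPKM in gefitinib libraries, 17.8, 12.5, 14.3 and 13.5 FPKM in AZ1366 libraries and 28.6, 21.9, 21.8 and 23.3 FPKM in vehicle libraries. The combination was below gefitinib and AZ1366 in every library, and all treated libraries were below all vehicle libraries. VARS fell by 1.29 ± 0.098 on the log2 scale with the combination, by 0.82 ± 0.098 with gefitinib and by 0.68 ± 0.098 with AZ1366 (adjusted p = 1.61e-09 for the combination, 1.30e-06 for gefitinib and 3.72e-05 for AZ1366). The AZ1366 change of VARS was -0.78 without AZ1366 replicate 1.

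IARS, which charges tRNA with isoleucine, gave 4 separate groups of values (hg19 chromosome 9, 94972625 to 95056038). IARS had 44.8, 43.9, 43.6 and 46.5 FPKM in combination libraries, 57.4, 58.8, 60.1 and 56.2 FPKM in gefitinib libraries, 69.1, 62.5, 63.6 and 65.5 FPKM in AZ1366 libraries and 84.6, 79.8, 83.7 and 78.2 FPKM in vehicle libraries. No library of any group overlapped with another group. The change was -0.85 ± 0.046 with the combination, -0.48 ± 0.046 with gefitinib and -0.32 ± 0.046 with AZ1366 (-0.35 without AZ1366 replicate 1), all called. EPRS, a fusion of the glutamyl and prolyl enzymes, was among the 3 largest falls of the cytosolic class when the combination was set against gefitinib (-0.36 ± 0.070, adjusted p = 0.000518). EPRS had 51.3, 50.8, 47.6 and 48.3 FPKM in combination libraries, 67.7, 68.3, 63.5 and 57.0 FPKM in gefitinib libraries, 67.2, 54.5, 53.8 and 55.2 FPKM in AZ1366 libraries and 76.7, 71.7, 77.7 and 74.8 FPKM in vehicle libraries. Replicate 1 of the AZ1366 group was far above the other 3, and without it the AZ1366 change against vehicle was -0.46 in place of -0.38. The shared locus interval of EPRS also covers IARS2 and other rows. In GRCh38.p14 the promoter window of EPRS runs from 220046456 to 220046755 on the minus strand. That of IARS2 runs from 220093882 to 220094181 on the plus strand, so from these starts the 2 genes are read away from each other. Overlap with the other rows was not looked at.

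FARSA and FARSB encode the alpha and beta subunits of the cytosolic phenylalanyl enzyme and lie on different chromosomes (hg19 chromosome 19, 13033284 to 13044558 and hg19 chromosome 2, 223436162 to 223520827). FARSA had 29.9, 32.1, 28.6 and 30.0 FPKM in combination libraries, 36.8, 38.2, 35.1 and 41.2 FPKM in gefitinib libraries, 48.2, 41.8, 45.3 and 42.2 FPKM in AZ1366 libraries and 69.0, 58.1, 59.8 and 62.6 FPKM in vehicle libraries. FARSB had 28.2, 29.5, 32.3 and 31.9 FPKM in combination libraries, 37.8, 37.1, 36.8 and 38.5 FPKM in gefitinib libraries, 49.3, 63.2, 64.6 and 58.2 FPKM in AZ1366 libraries and 50.7, 60.0, 62.2 and 60.1 FPKM in vehicle libraries. With gefitinib and with the combination both subunits lay below every vehicle library, whereas with AZ1366 FARSA did and FARSB overlapped with vehicle. FARSA changed by -0.71 ± 0.065 and FARSB by -0.62 ± 0.078 with gefitinib, and with AZ1366 FARSA changed by -0.48 ± 0.065 (adjusted p = 2.12e-05) and FARSB by 0.01 ± 0.078 (adjusted p = 0.910). These AZ1366 changes were -0.52 for FARSA, which was called, and 0.09 for FARSB, which was not, without AZ1366 replicate 1. FARSB was lower in gefitinib than in AZ1366 by 0.63 ± 0.078 on the log2 scale (adjusted p = 4.02e-06).

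The ratio of FARSA to FARSB was compared within libraries, a test chosen after the values were seen. It was 0.994 ± 0.0963 with the combination, 1.01 ± 0.0529 with gefitinib, 0.766 ± 0.143 with AZ1366 and 1.08 ± 0.188 with vehicle (SD, n = 4 each). The difference of AZ1366 from vehicle, -0.49 in the log2 ratio, had p = 0.0857 in an exact two-sided permutation test and 0.143 when adjusted over the 10 ratio tests. Without AZ1366 replicate 1 it was -0.61 with exact p = 0.0286, and without vehicle replicate 1 -0.38 with exact p = 0.114. With 4 libraries against 4 the smallest p that such a test can give is 0.0286, which becomes 0.0714 after adjustment here.

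GARS and KARS serve both cytosol and mitochondria. GARS had 94.0, 103, 87.4 and 92.0 FPKM in combination libraries, 115, 125, 112 and 112 FPKM in gefitinib libraries, 119.6, 86.3, 97.7 and 92.3 FPKM in AZ1366 libraries and 143, 131, 131 and 128 FPKM in vehicle libraries. GARS, the glycyl enzyme, was below all vehicle libraries in every treated library, with changes of -0.50 ± 0.081 with the combination (adjusted p = 2.09e-05), -0.20 ± 0.081 with gefitinib (0.0382) and -0.43 ± 0.081 with AZ1366 (0.000317). The GARS change with AZ1366 was -0.53 without AZ1366 replicate 1. The gefitinib call did not hold in 6 of the 16 fits that left out a library each, namely without vehicle replicate 1, 2 or 3 or gefitinib replicate 1, 3 or 4. KARS had 116, 119, 119 and 118 FPKM in combination libraries, 113, 120.1, 112 and 119 FPKM in gefitinib libraries, 112, 117, 119 and 115 FPKM in AZ1366 libraries and 122, 119, 127 and 120.2 FPKM in vehicle libraries. KARS, the lysyl enzyme, was called in none of the comparisons: its changes were -0.05 ± 0.043 with the combination, -0.08 ± 0.043 with gefitinib and -0.08 ± 0.043 with AZ1366 (adjusted p = 0.291 for the combination, 0.125 for gefitinib and 0.115 for AZ1366), although after correction for length and GC content the gefitinib change of -0.11 passed.

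AARS, the alanyl enzyme, was lowest with AZ1366 and the combination. AARS had 47.4, 48.5, 44.5 and 47.6 FPKM in combination libraries, 62.0, 59.5, 58.9 and 60.4 FPKM in gefitinib libraries, 57.2, 49.7, 48.5 and 49.1 FPKM in AZ1366 libraries and 75.3, 61.9, 63.9 and 65.3 FPKM in vehicle libraries. Vehicle and gefitinib overlapped at their edges, and all AZ1366 and combination libraries were lower than both. Its change was -0.49 ± 0.063 with the combination, -0.14 ± 0.063 with gefitinib and -0.37 ± 0.063 with AZ1366, with adjusted p = 1.30e-06 for the combination, 0.0585 for gefitinib and 0.000140 for AZ1366. The gefitinib change of AARS was called with the replicate block (adjusted p = 0.0265), without vehicle replicate 2 (0.0325) and without AZ1366 replicate 1 (0.0266), where the AZ1366 change was -0.43. Gefitinib was higher than AZ1366 by 0.23 ± 0.063 (adjusted p = 0.00558). The remaining cytosolic genes that fell with the combination, LARS, NARS, TARS, MARS and YARS besides HARS, changed by -0.49 to -0.32, and SARS, the seryl enzyme, was at -0.03 and not called.

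With the combination the mitochondrial synthetases MARS2, AARS2, EARS2 and LARS2 fell most. MARS2, the methionyl enzyme (hg19 chromosome 2, 198570028 to 198573114), was at low abundance. MARS2 had 1.73, 1.73, 1.34 and 1.64 FPKM in combination libraries, 2.10, 1.95, 2.04 and 2.26 FPKM in gefitinib libraries, 3.78, 2.42, 2.88 and 2.22 FPKM in AZ1366 libraries and 4.57, 4.09, 4.51 and 4.50 FPKM in vehicle libraries. All treated libraries lay below all vehicle libraries, with AZ1366 replicate 1 nearest to them. MARS2 changed by -1.05 ± 0.093 with the combination, -0.81 ± 0.093 with gefitinib and -0.52 ± 0.093 with AZ1366 (adjusted p = 1.13e-08 for the combination, 8.06e-07 for gefitinib and 0.000245 for AZ1366). For MARS2 the AZ1366 change was -0.63 without AZ1366 replicate 1.

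EARS2, the glutamyl enzyme that also primes the mitochondrial route to glutaminyl-tRNA, is more abundant (hg19 chromosome 16, 23533334 to 23568696). EARS2 had 12.6, 13.3, 11.3 and 12.2 FPKM in combination libraries, 16.1, 16.9, 14.98 and 15.6 FPKM in gefitinib libraries, 19.5, 14.7, 15.8 and 15.9 FPKM in AZ1366 libraries and 25.9, 22.7, 24.4 and 24.1 FPKM in vehicle libraries. Again every treated library was below every vehicle library. Its changes were -0.92 ± 0.074 with the combination, -0.58 ± 0.074 with gefitinib and -0.54 ± 0.074 with AZ1366 (-0.62 without AZ1366 replicate 1), all called. MARS2 and EARS2 are 2 of the 3 mitochondrial genes of 14 with an E-box (CACGTG, the letters bound by MYC and related factors) in the promoter window, the other being CARS2; of the cytosolic genes 1 of 16 had it (IARS), and 8.77% of all genes. EARS2 has a further annotated start, for which the E-box begins at base 11 of the transcribed part. LARS2, whose window holds no E-box, was also lower in all 3 comparisons with vehicle. Whether the E-box bears on these falls was not tested. The 60 bases before the MARS2 start and 1 EARS2 start are given because these 2 genes fell strongly in all 3 comparisons. Only the E-box is in capitals. In lower case the MARS2 stretch also holds the NRF1 letters, and the EARS2 stretch the ETS letters CCGGAAGT.
MARS2 (chr2:197705309-197705368, plus strand): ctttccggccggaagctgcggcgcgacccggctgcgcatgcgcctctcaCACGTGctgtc
EARS2 (chr16:23557351-23557410, minus strand): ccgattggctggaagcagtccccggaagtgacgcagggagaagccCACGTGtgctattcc

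AARS2, the mitochondrial alanyl enzyme (hg19 chromosome 6, 44266463 to 44281063), had no entry in the promoter table. AARS2 had 1.97, 2.16, 1.75 and 1.84 FPKM in combination libraries, 3.19, 3.26, 2.75 and 2.77 FPKM in gefitinib libraries, 3.94, 2.84, 2.87 and 2.85 FPKM in AZ1366 libraries and 6.36, 4.85, 4.82 and 4.83 FPKM in vehicle libraries. Replicate 1 was the highest of its group with AZ1366 and with vehicle. The changes were -1.08 ± 0.091 with the combination, -0.63 ± 0.091 with gefitinib and -0.59 ± 0.091 with AZ1366, and all were called in each fit that left out a library, the AZ1366 change being -0.68 without AZ1366 replicate 1. LARS2, the leucyl enzyme, followed. LARS2 had 2.60, 2.80, 2.58 and 2.45 FPKM in combination libraries, 3.45, 3.74, 3.34 and 3.22 FPKM in gefitinib libraries, 4.48, 3.60, 3.57 and 3.61 FPKM in AZ1366 libraries and 5.45, 4.88, 4.98 and 4.81 FPKM in vehicle libraries. The combination lay below every other group and vehicle above all of them, with changes of -0.74 ± 0.065 for the combination, -0.44 ± 0.065 for gefitinib and -0.33 ± 0.065 for AZ1366. The AZ1366 change of LARS2 was -0.39 without AZ1366 replicate 1, and -0.086 with the call lost (adjusted p = 0.0532) after correction for length and GC content.

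RARS2 and PARS2, the mitochondrial arginyl and prolyl enzymes, rose slightly with the combination. RARS2 had 29.6, 30.0, 31.0 and 30.0 FPKM in combination libraries, 27.6, 30.2, 30.1 and 29.8 FPKM in gefitinib libraries, 28.7, 30.5, 30.6 and 28.5 FPKM in AZ1366 libraries and 24.9, 27.0, 29.2 and 27.3 FPKM in vehicle libraries. PARS2 had 3.06, 2.87, 2.75 and 2.78 FPKM in combination libraries, 2.68, 2.58, 2.66 and 2.91 FPKM in gefitinib libraries, 2.71, 2.72, 2.54 and 2.54 FPKM in AZ1366 libraries and 2.51, 2.59, 2.42 and 2.51 FPKM in vehicle libraries. The combination libraries lay above the vehicle libraries in both genes. RARS2 changed by 0.15 ± 0.052 (adjusted p = 0.0125) and PARS2 by 0.14 ± 0.048 (0.0135), the call of PARS2 being lost without combination replicate 1 and the RARS2 call after correction for length and GC content. FARS2, SARS2 and WARS2, the phenylalanyl, seryl and tryptophanyl enzymes of mitochondria, were not called with the combination (0.00, -0.06 and -0.02). With gefitinib, where its cytosolic counterpart WARS rose, WARS2 was at -0.03 ± 0.053 (adjusted p = 0.640).

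**Figure D2:**
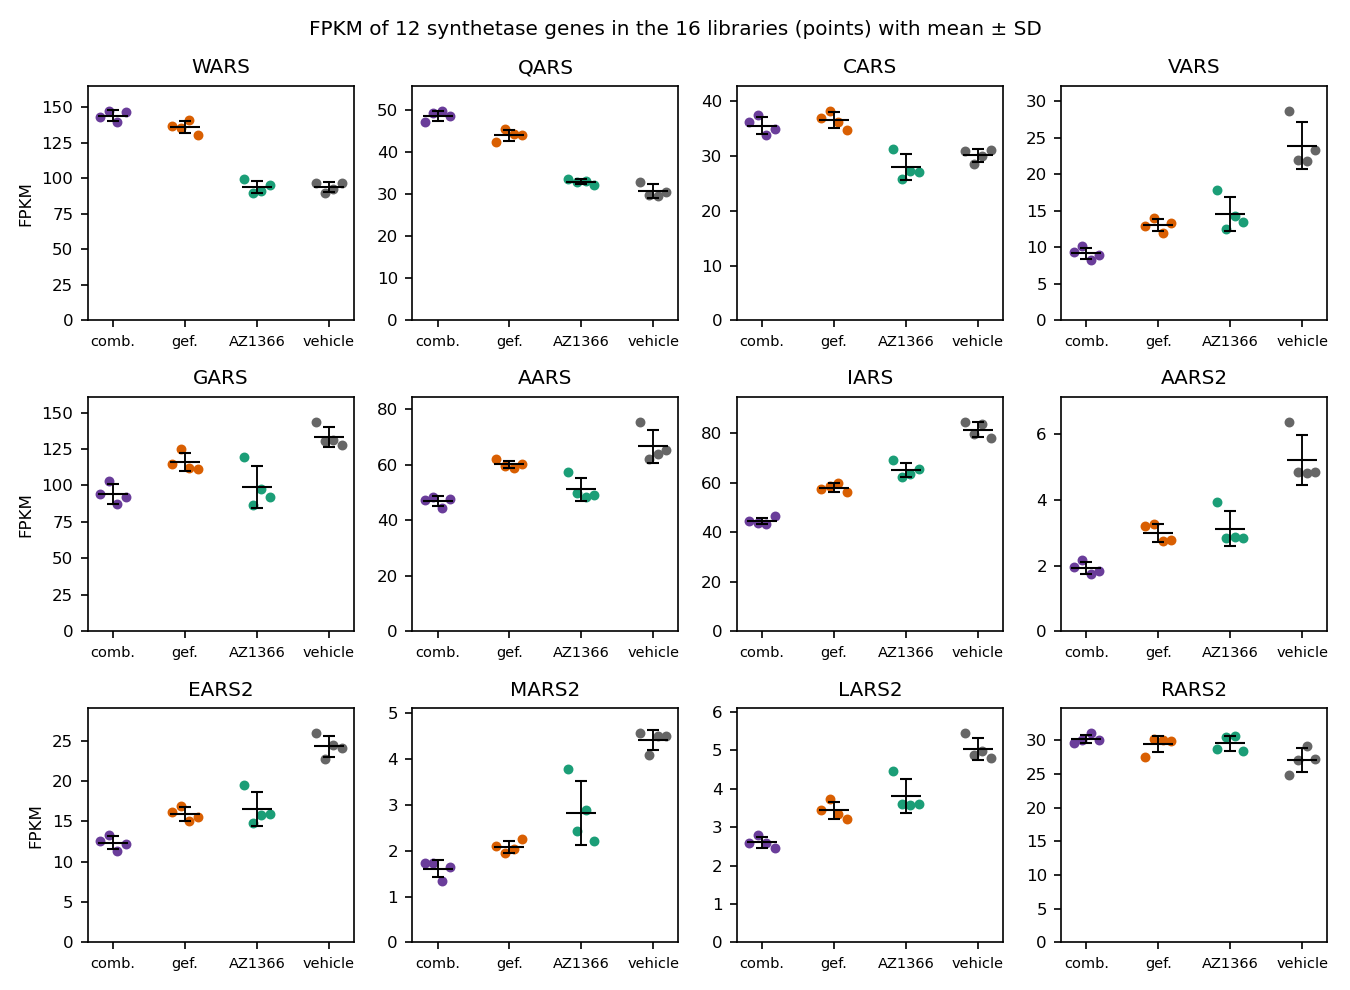
FPKM of 12 synthetase genes in each of the 16 libraries (points), with the mean and SD of each group (line and bars), for the combination, gefitinib, AZ1366 and vehicle from left to right. WARS and QARS are high where gefitinib was given, and VARS, IARS, AARS2, EARS2, MARS2 and LARS2 are highest in vehicle.

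HARS and HARS2, the cytosolic and mitochondrial histidyl enzymes, are neighbours on chromosome 5 that are read in opposite directions. Their RefSeq starts in GRCh38.p14 are 85 bases apart, HARS at 140691370 on the minus strand and HARS2 at 140691455 on the plus strand. In the table both share the hg19 interval of chromosome 5, 140053490 to 140078890. The 85 bases before the HARS2 start, on its strand, are printed with the ETS sites (CCGGAAGT on either strand) in capitals, since the 2 genes start at its ends.
HARS2 (chr5:140691370-140691454, plus strand): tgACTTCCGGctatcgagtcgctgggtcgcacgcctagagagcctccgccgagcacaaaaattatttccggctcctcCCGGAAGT
ETS letters were found for 5 of the 16 cytosolic genes (31.2%) and 3 of the 14 mitochondrial genes (21.4%), against 4.95% of all genes, and the 2 sites of HARS and HARS2 are the same letters counted for each.

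The neighbours moved apart where gefitinib was given. HARS had 45.7, 49.2, 46.8 and 45.9 FPKM in combination libraries, 51.4, 53.9, 49.8 and 54.5 FPKM in gefitinib libraries, 64.99, 57.2, 58.8 and 56.6 FPKM in AZ1366 libraries and 72.8, 65.3, 67.7 and 63.8 FPKM in vehicle libraries. HARS2 had 25.7, 25.7, 25.0 and 26.1 FPKM in combination libraries, 24.7, 26.4, 24.6 and 24.0 FPKM in gefitinib libraries, 22.5, 18.1, 19.1 and 19.2 FPKM in AZ1366 libraries and 23.9, 20.7, 20.9 and 21.1 FPKM in vehicle libraries. HARS was lower and HARS2 higher in all gefitinib and combination libraries than in all vehicle libraries. HARS changed by -0.51 ± 0.055 with the combination, -0.36 ± 0.055 with gefitinib and -0.18 ± 0.055 with AZ1366, and HARS2 by 0.24 ± 0.062 with the combination, 0.20 ± 0.062 with gefitinib and -0.13 ± 0.062 with AZ1366. The HARS2 changes had adjusted p = 0.00219 with the combination, 0.0107 with gefitinib and 0.0783 with AZ1366. The AZ1366 fall of HARS (adjusted p = 0.0104) overlapped with vehicle and was lost under median-ratio scaling. With AZ1366 replicate 1 left out the AZ1366 changes were -0.22 for HARS and -0.19 for HARS2, and the fall of HARS2 was then called (adjusted p = 0.00400).

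The ratio of HARS to HARS2 was 1.83 ± 0.0742 with the combination, 2.10 ± 0.113 with gefitinib, 3.02 ± 0.122 with AZ1366 and 3.12 ± 0.0990 with vehicle (SD, n = 4 each), a comparison chosen after the values were seen. Exact two-sided permutation tests gave p = 0.0286, the smallest possible, for the combination and for gefitinib against vehicle, and 0.229 for AZ1366 against vehicle. After adjustment over the 10 ratio tests these were 0.0714 for the combination and for gefitinib and 0.327 for AZ1366, so no ratio passed 0.05. Whether the library kit kept the strand is not stated. The 2 genes are related in sequence and were given the same hg19 interval, so reads may have been shared between them. The part of such sharing in the result was not tested.

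**Figure D3:**
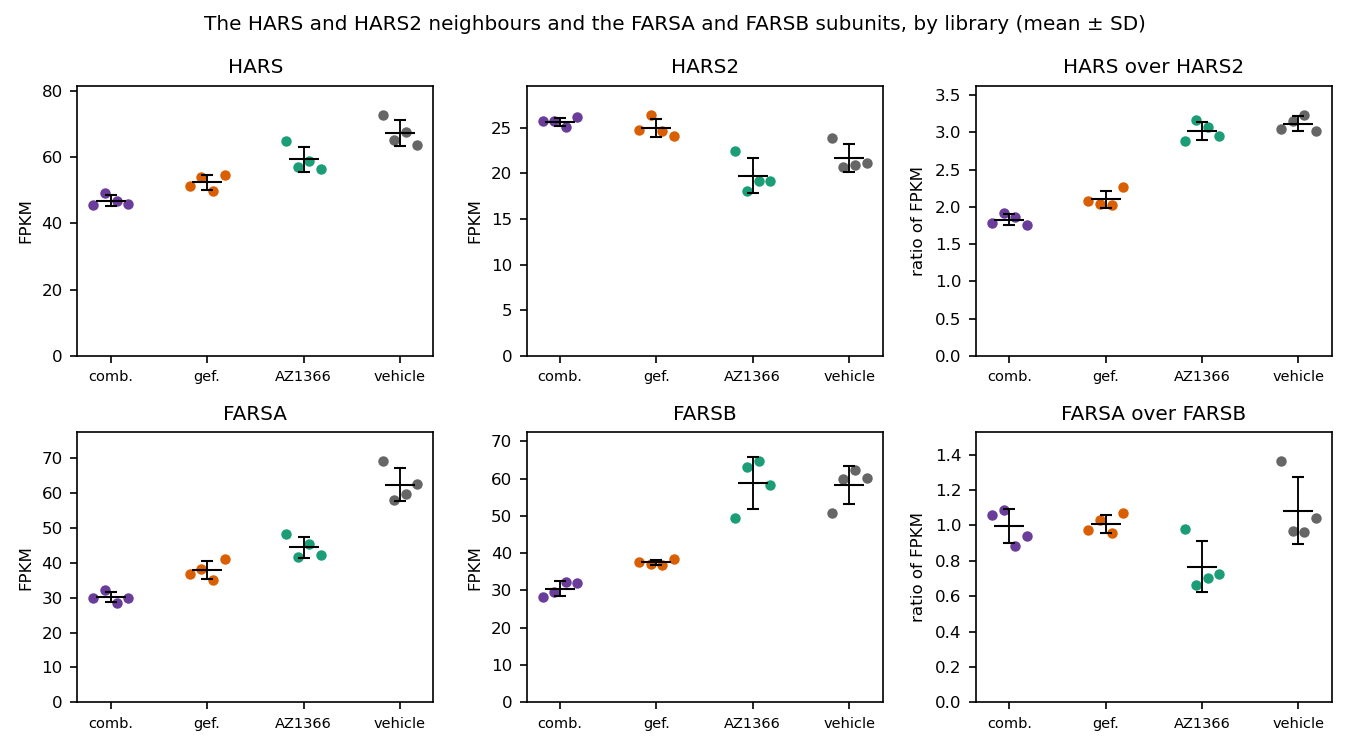
FPKM of HARS, HARS2, FARSA and FARSB and the ratios HARS over HARS2 and FARSA over FARSB in each library (points) with mean and SD, for the combination, gefitinib, AZ1366 and vehicle from left to right. HARS over HARS2 lies near 2 with gefitinib and near 3 without it, and FARSA over FARSB is lowest with AZ1366 at 0.766 ± 0.143.

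Set directly against each other, gefitinib and AZ1366 differed in part of the cytosolic class. Of the 20 cytosolic genes 8 were higher with gefitinib than with AZ1366 and 4 were lower (median 0.09), and of the 16 mitochondrial genes 2 were higher and 1 was lower (median 0.04), beside 28.1% higher and 17.9% lower over all loci and a median of 0.04. The mitochondrial median turned to -0.033 after correction for length and GC content and to -0.015 under median-ratio scaling. The smallest p-values among the higher genes were those of WARS (0.53 ± 0.047, adjusted p = 5.66e-08), QARS (0.41 ± 0.045, 1.13e-06) and CARS (0.38 ± 0.058, 3.73e-05). Among the lower genes they were those of FARSB, IARS (-0.16 ± 0.046, 0.00809) and FARSA (-0.23 ± 0.065, 0.00886). In mitochondria HARS2 (0.33 ± 0.062) and the valyl enzyme gene VARS2 (0.28 ± 0.056) were higher and MARS2 (-0.29 ± 0.093) was lower, and the VARS2 call was lost after the length and GC correction. Without AZ1366 replicate 1 there were 13 higher and 6 lower members in place of 10 and 5, EPRS, NARS and TARS2 being added to the higher and RARS to the lower genes, beside 38.6% higher and 17.2% lower over all loci.

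The cytosolic genes were also split by whether they are known as ATF4 targets, and the counts are read beside the shares of all loci given above. This list was drawn up with earlier results of these data known, so its counts are a description only. Of 12 such genes tested (AARS, CARS, EPRS, GARS, IARS, LARS, MARS, NARS, SARS, TARS, WARS and YARS) 7 were higher and 1 lower with gefitinib than with AZ1366, with a median of 0.18. In the same comparison the other 8 gave 1 higher and 3 lower, with a median of -0.13. Against vehicle, AZ1366 gave 0 rises and 10 falls among the 12 (median -0.30) and 1 rise and 3 falls among the 8 (median -0.03). With gefitinib the 12 gave 2 rises and 6 falls (median -0.15) and the 8 gave 1 rise and 4 falls (median -0.22). Without AZ1366 replicate 1, 11 of the 12 fell with AZ1366, beside 49.1% of all loci, and 9 were higher with gefitinib than with AZ1366, beside 38.6%. Under median-ratio scaling 8 of the 12 fell and 1 rose with AZ1366, and the median of the other 8 turned to 0.09.

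ATF4 itself was higher where gefitinib was present. Its mean was 111 ± 4.44 FPKM with the combination, 114 ± 6.68 FPKM with gefitinib, 71.9 ± 13.0 FPKM with AZ1366 and 80.3 ± 7.17 FPKM with vehicle (SD, n = 4 each). The change was 0.47 ± 0.094 with the combination (adjusted p = 0.000191), 0.51 ± 0.094 with gefitinib (0.000154) and -0.17 ± 0.094 with AZ1366 (0.130). The ATF4 change with AZ1366 was -0.28 and was called (adjusted p = 0.00253) without AZ1366 replicate 1. ATF4 protein, whose translation is regulated, was not measured. Among 29 ATF4 stress genes 8 rose and 16 fell with the combination (median -0.15), 11 rose and 8 fell with gefitinib (median -0.01), and 2 rose and 16 fell with AZ1366 (median -0.21). All loci gave 29.9% rises and 49.4% falls with the combination, 27.7% rises and 36.9% falls with gefitinib, and 18.6% rises and 39.8% falls with AZ1366. Between gefitinib and AZ1366, 17 of the 29 were higher and 4 lower (median 0.23), beside 28.1% higher and 17.9% lower over all loci. With AZ1366 replicate 1 left out, 3 of the 29 rose and 19 fell with AZ1366, and 19 were higher and 4 lower with gefitinib than with AZ1366. All loci then gave 18.7% rises and 49.1% falls with AZ1366, and 38.6% higher and 17.2% lower with gefitinib than with AZ1366.

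The stress genes with the smallest p with gefitinib were NUPR1 (2.01 ± 0.088), ATF3 (1.09 ± 0.064), CHAC1 (0.66 ± 0.067) and CTH (0.63 ± 0.074), all higher. NUPR1 encodes a stress-induced chromatin protein, CHAC1 degrades glutathione and CTH makes cysteine. With AZ1366 they were STC2 (-0.95 ± 0.10), the amino acid transporter genes SLC7A5 (-0.56 ± 0.067) and SLC3A2 (-0.38 ± 0.048), and ALDH18A1 (-0.40 ± 0.055) of proline synthesis, all lower. These genes differ in direction within the list, so its counts do not describe a common movement.

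Of the 7 cytosolic genes that hold the C/EBP-ATF letters 6 fell with AZ1366 and 0 rose (median -0.32), CARS at -0.11 being the exception, and of the 9 without the letters 4 fell and 1 rose (median -0.08). With gefitinib 1 holder rose and 4 fell (median -0.17), and of the 9 others 2 rose and 4 fell (median -0.08). Of the 4 gefitinib falls among holders, that of GARS was lost in 7 of 25 alternative fits. That of NARS was lost in 8, that of TARS in 1 and that of IARS in 0. Gefitinib against AZ1366 gave 4 higher and 1 lower among the holders (median 0.21) and 3 higher and 3 lower among the others (median 0.00). Under quantile, median-ratio and length and GC corrected fits the AZ1366 falls among holders still numbered 6. Of these fits, the share of all loci is given above for median-ratio scaling alone. The holders that fell with AZ1366 numbered 7 without AZ1366 replicate 1, where 49.1% of all loci fell. Beside these counts stand 18.6% rises and 39.8% falls of all loci with AZ1366 (median -0.10), 27.7% rises and 36.9% falls with gefitinib (median -0.06), and 28.1% higher and 17.9% lower for gefitinib against AZ1366 (median 0.04). All 7 holders are also in the list of 12 ATF4 targets, so the 2 groupings are not separate. WARS, which rose most with gefitinib, had no match in its windows.

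**Figure D4:**
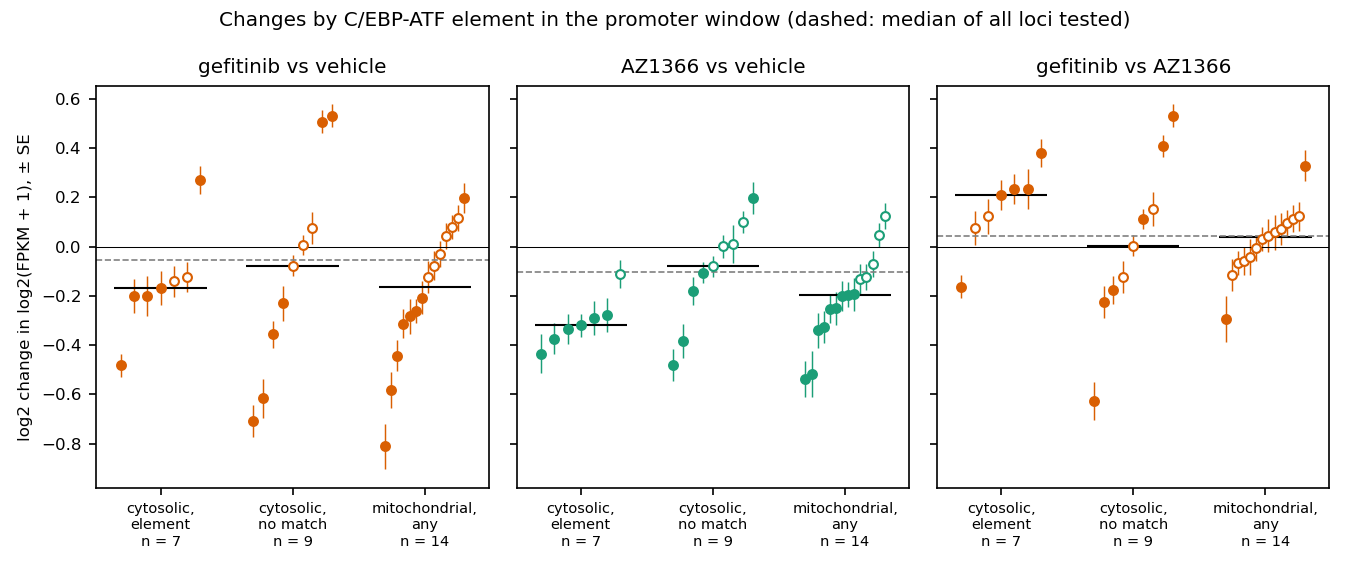
Log2 change with standard error of each synthetase gene with a promoter window, for gefitinib against vehicle, AZ1366 against vehicle and gefitinib against AZ1366, split into 7 cytosolic genes with the C/EBP-ATF letters, 9 cytosolic genes without them and all 14 mitochondrial genes. Black lines are medians, dashed lines the median of all loci and filled points have an adjusted p under 0.05: the 7 holders lie between -0.43 and -0.11 with AZ1366.

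Cytosolic enzymes were also grouped by their place in the cell. Among the 8 enzymes of the large complex, 1 rose and 4 fell with AZ1366 (median -0.15), 1 rose and 3 fell with gefitinib (median -0.10) and 3 rose and 4 fell with the combination (median -0.19). Among the 12 free cytosolic enzymes, 0 rose and 9 fell with AZ1366 (median -0.28), 2 rose and 7 fell with gefitinib (median -0.18), and 2 rose and 9 fell with the combination (median -0.45). Over all loci 18.6% rose and 39.8% fell with AZ1366 (median -0.10). Gefitinib gave 27.7% rises and 36.9% falls over them (median -0.06), and the combination 29.9% rises and 49.4% falls (median -0.15). With AZ1366 replicate 1 left out, 2 complex enzymes rose and 4 fell with AZ1366, and 0 free enzymes rose and 10 fell. All loci then gave 18.7% rises and 49.1% falls. Of the scaffold genes AIMP1 and AIMP2 were tested, and both fell with the combination, gefitinib and AZ1366. AIMP2 changed by -0.58 ± 0.053 with the combination, -0.46 ± 0.053 with gefitinib and -0.19 ± 0.053 with AZ1366, and AIMP1 by -0.38 ± 0.057 with the combination, -0.28 ± 0.057 with gefitinib and -0.14 ± 0.057 with AZ1366. By fold of the catalytic domain, 18 class I genes gave 5 rises and 12 falls with the combination (median -0.35) and 17 class II genes 3 rises and 10 falls (median -0.38). EPRS was left out there because it joins an enzyme of each class.

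Partner genes of tRNA charging and of mitochondrial translation were counted beside all loci, of which 29.9% rose and 49.4% fell with the combination, 27.7% rose and 36.9% fell with gefitinib, and 18.6% rose and 39.8% fell with AZ1366. Of 13 tested charging partners 2 rose and 7 fell with the combination (median -0.27), 1 rose and 8 fell with gefitinib (median -0.22), and 1 rose and 5 fell with AZ1366 (median -0.11). SEPSECS, which makes selenocysteinyl-tRNA, rose by 0.28 ± 0.055 with gefitinib. A list of 21 genes joined mitochondrial translation factors with enzymes that process or modify tRNA. Of these 21, 3 rose and 15 fell with the combination (median -0.49), 2 rose and 15 fell with gefitinib (median -0.25), and 2 rose and 12 fell with AZ1366 (median -0.19). With AZ1366 replicate 1 left out, 1 charging partner rose and 6 fell with AZ1366, and 3 of the 21 genes rose and 13 fell. All loci then gave 18.7% rises and 49.1% falls. PUS1, a pseudouridine synthase of tRNA, changed by -1.48 ± 0.088 with the combination, -0.97 ± 0.088 with gefitinib and -0.73 ± 0.088 with AZ1366, and the tRNA thiolation enzyme gene TRMU by -0.88 ± 0.056 with the combination, -0.59 ± 0.056 with gefitinib and -0.45 ± 0.056 with AZ1366.

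Set against gefitinib alone, the combination mostly gave lower levels. It gave 1 higher and 13 lower cytosolic genes (median -0.21) and 0 higher and 9 lower mitochondrial genes (median -0.17), beside 15.3% higher and 37.2% lower over all loci and a median of -0.10. The largest falls were VARS (-0.47 ± 0.098), IARS (-0.37 ± 0.046) and EPRS in the cytosol, and AARS2 (-0.45 ± 0.091), EARS2 (-0.34 ± 0.074) and LARS2 (-0.30 ± 0.065) in mitochondria, the LARS2 call being lost after the length and GC correction (-0.087, adjusted p = 0.0566). Under median-ratio scaling, which set the median of all loci to 0.00 and their split to 26.6% higher and 27.9% lower, 11 members in place of 22 were called lower and 5 in place of 1 were called higher. Leaving out 1 library, the members called lower numbered from 15 to 22, the 15 being 10 cytosolic and 5 mitochondrial genes without combination replicate 4. These counts lack the shares of all loci in the same fits and describe the members only.

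Against AZ1366, the combination gave 3 higher and 7 lower cytosolic genes (median -0.08) and 1 higher and 8 lower mitochondrial genes (median -0.10), beside 26.9% higher and 35.7% lower over all loci and a median of -0.05. The higher genes were WARS (0.61 ± 0.047), QARS (0.55 ± 0.045), CARS (0.34 ± 0.058) and HARS2 (0.37 ± 0.062). The largest falls were FARSB (-0.92 ± 0.078), VARS (-0.61 ± 0.098) and FARSA (-0.54 ± 0.065) in the cytosol, and MARS2 (-0.54 ± 0.093), AARS2 (-0.49 ± 0.091) and LARS2 (-0.41 ± 0.065) in mitochondria. Without AZ1366 replicate 1, 3 cytosolic genes were higher and 7 lower (median -0.037), and 1 mitochondrial gene was higher and 7 lower (median -0.086), NARS2 no longer being called, beside 30.3% higher and 31.7% lower over all loci. VARS was then at -0.51, FARSA at -0.50, WARS at 0.64, QARS at 0.56 and HARS2 at 0.43. The comparisons share libraries, so their values are set side by side only.

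No synthetase was called in the limma test of the interaction, the change with AZ1366 in the presence of gefitinib minus that in its absence on the log2 scale. The counts were 0 higher and 0 lower of 36, beside 0.326% higher and 1.49% lower over all loci. At an unadjusted p under 0.05 there were 3 members (VARS2, SARS2 and FARSB), beside 14.4% of all loci. VARS2 was at 0.25 ± 0.079 (adjusted p = 0.135), SARS2 at 0.26 ± 0.094 (0.200) and FARSB at -0.31 ± 0.11 (0.205). Without AZ1366 replicate 1, FARSB at -0.39 and MARS2 at 0.39 passed the threshold.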

How the data were processed

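RNA was isolated by miRNeasy and made into libraries with the TruSeq v2 polyA kit, per the labels' protocols. The authors deposited FPKM per locus, made with TopHat 1.4.1, Cufflinks 1.3.0 and Cuffdiff on hg19, per the submitters' processing notes. Read counts and the kit's strand setting are not given in the sources used here, and the FPKM did not fall on whole-read steps, so depth could not be recovered.

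From these values, log2(FPKM + 1) was fitted with limma 3.58.1 in R 4.3.3, with 1 coefficient per group, 16 libraries, 12 residual degrees of freedom and a mean-variance trend. All 11647 loci with a mean of at least 1 FPKM were fitted together, and p-values were adjusted over them by the Benjamini-Hochberg method. A call needs an adjusted p under 0.05. The fit was tested on simulated data. Ratios of gene pairs used exact permutation tests over libraries. Alternatives were quantile and median-ratio scaling, a pseudocount of 0.1, no filter or a mean of 5 FPKM, no variance trend, only the libraries compared, a replicate block, a correction for length and GC content (GENCODE 29, 99.0% of loci), and leaving out each library.

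Members and gene lists were chosen with earlier results of these data known. Values in every library are given for AARS, WARS, GARS, KARS, HARS and HARS2, and for up to 3 of the largest called rises and falls of each class in the comparisons with vehicle and of the combination with each compound. For gefitinib against AZ1366 the 3 called members of smallest p in each direction are named, and of related lists up to 4 called genes of smallest p, with ATF4 always.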

Additional observations from a re-analysis of the deposited data

Results flagged for a closer look

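In 14 of 152 groups of 4 libraries, 1 library was far from the other 3 by Dixon's criterion, which by chance occurs in about 5% of groups.

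Replicate 1 of AZ1366 was the high library in 6 genes. It had 57.2 FPKM of AARS (48.5 to 49.7 FPKM in the other 3), 67.2 FPKM of EPRS (53.8 to 55.2 FPKM), 68.7 FPKM of NARS (54.5 to 55.2 FPKM) and 172 FPKM of TARS (142 to 144 FPKM). In the mitochondrial class it had 3.94 FPKM of AARS2 (2.84 to 2.87 FPKM) and 4.48 FPKM of LARS2 (3.57 to 3.61 FPKM). AZ1366 replicate 3 had 10.8 FPKM of YARS2, against 9.89 to 9.93 FPKM in the other 3.

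Replicate 1 of vehicle was high in YARS at 63.0 FPKM (50.9 to 52.1 FPKM in the other 3), AARS2 at 6.36 FPKM (4.82 to 4.85 FPKM) and HARS2 at 23.9 FPKM (20.7 to 21.1 FPKM). Vehicle replicate 2 was low in MARS2 at 4.09 FPKM, against 4.50 to 4.57 FPKM. Combination replicate 4 was high in LARS at 45.1 FPKM, against 43.6 to 43.7 FPKM. Gefitinib replicate 3 was low in FARS2 at 2.77 FPKM, against 3.19 to 3.24 FPKM, and gefitinib replicate 1 in RARS2 at 27.6 FPKM, against 29.8 to 30.2 FPKM.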

How the results depend on the processing

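Read depth is unknown, so low genes such as MARS2 and PARS2 carry a counting error that cannot be stated. The causes of the changes below were not tested. Rises with AZ1366 against vehicle numbered 3 after quantile normalization, 6 under median-ratio scaling, 3 with no filter, 2 with a minimum mean of 5 FPKM, 0 with only the libraries compared, 2 with the replicate block and 3 with the length and GC correction. The shares of all loci called also moved with the scaling, as given above for median ratios. The member counts in this section therefore cannot be read as results about the synthetases alone. Same-numbered libraries were not treated as pairs in the main fit. Of 24 correlations of their deviations 16 were over 0.1 (from -0.447 to 0.539, median 0.215). Between other numbers 25 of 72 were (median -0.091), and 4 of 16 libraries correlated best with their own number. Same-numbered libraries thus had the higher median correlation, and whether they share a batch was not tested. The fit with a replicate block is among the alternatives.

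After quantile normalization the mitochondrial median was -0.077 with AZ1366, -0.13 with the combination, -0.017 for the combination against gefitinib and -0.032 against AZ1366, and the combination had 5 members higher than gefitinib and 8 higher than AZ1366. Median-ratio scaling gave cytosolic medians of -0.22 with the combination, -0.091 with gefitinib and -0.12 with AZ1366, mitochondrial medians of -0.18 with the combination and -0.11 with AZ1366, and, for the combination against gefitinib, 5 higher, 11 lower and a cytosolic median of -0.090 and a mitochondrial one of -0.063. It gave 8 members higher in the combination than in AZ1366. The length and GC correction gave cytosolic medians of -0.17 with the combination and -0.12 with AZ1366, and mitochondrial medians of -0.14 with the combination and -0.097 with AZ1366. For the combination against gefitinib it gave 8 higher, 12 lower and a cytosolic median of -0.040 and a mitochondrial one of -0.048, and against AZ1366 a cytosolic median of -0.022. For gefitinib against AZ1366 it gave 11 lower, a cytosolic median of 0.029 and a mitochondrial one of -0.033.

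Leaving out 1 library, rises ranged from 0 to 3 with AZ1366 and from 0 to 1 for the combination against gefitinib, and interaction calls from 0 to 1 in each direction. Changes of sign occurred in SARS with AZ1366 (0.018, median-ratio) and the combination (0.15, median-ratio), SARS2 with the combination (0.16, quantile), and WARS2 with the combination (0.19 quantile, 0.13 median-ratio, 0.11 length and GC). Under the length and GC correction VARS2 was at 0.037 with the combination, 0.014 with gefitinib and 0.023 for the combination against gefitinib, where CARS was at 0.094.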
